A study of Mus musculus with 6 samples.

Results

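Semaphorins, plexins and neuropilins are a family of guidance ligands and the receptors that read them. The members were the genes whose names are Sema followed by a class number and a letter, Plxn followed by a subfamily letter and a number, or Nrp1 and Nrp2. This gave 31 of the 25576 genes listed in any library: 20 semaphorins, 9 plexins and 2 neuropilins. All 31 were listed above 0 in all 6 libraries and passed the filter of a mean of at least 0.5 FPKM, so none was left out of a test. FPKM scales fragments by transcript length and by the mapped fragments of the library, so levels of different genes are compared per length.

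The libraries are bulk RNA-seq of spinal cord, from total RNA freed of ribosomal RNA, of FVB mice at postnatal day 4. There were 3 libraries of SMA mice (mSmn-/-, hSMN22tg/0), the severe Taiwanese model of spinal muscular atrophy, and 3 of control mice (mSmn+/-, hSMN22tg/0). Both groups carry the human SMN2 transgene on 1 homologue, and the controls also lack 1 mouse copy of Smn. The mice came from a cross of Smn+/- mice with mild Smn-/- mice that carry the transgene on both homologues. The paper speaks of triplicates with a single n per group, which, like the labels, does not say whether each library is a separate animal, so the tests below measure the spread between these samples.

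Most semaphorins are anchored in the membrane, while those of class 3 are secreted. Secreted class 3 semaphorins bind neuropilins, which pass the signal on through A-type plexins, whereas membrane-bound semaphorins and Sema3e can bind plexins directly. Plexins act on the cytoskeleton and turn growth cones away or draw them in. In the spinal cord these proteins are known from the sorting of sensory and motor axons, the positioning of motor neuron cell bodies at the exit point, vessel patterning and the oligodendrocyte lineage. The study named Sema6d with Plxna1, and Sema5a with Plxna1, among ligand and receptor pairs of its single-cell analysis of cell contacts. It reported both as weakened in SMA between neurons and other cell types, and as found only in controls there. Few of its cells were neurons. Sema6d with Plxna1 was also among the weakened pairs of astrocytes. The level of these genes in the whole cord, given below, is a different measure.

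Values per library are given in the order of replicates 1 to 3. Smn1, the gene targeted in the model, had 10.4, 8.64 and 11.9 FPKM in the controls and 8.48, 9.30 and 11.1 FPKM in the SMA libraries. The groups overlapped. A value per gene cannot tell 1 exon from another, so Smn1 leaves the genotype labels unchecked. The tissue label was checked against marker genes. Caudal Hox genes were present in all 6 libraries (summed FPKM of 5 genes 108 to 214, with Hoxb8 the most abundant), and so were 11 of 11 neuron genes. Motor neuron genes, with Prph the most abundant of 6, summed to 58.2, 39.3 and 88.3 FPKM in the controls and 58.1, 65.0 and 60.5 FPKM in the SMA libraries, which overlapped. Astrocyte genes summed to 509 to 645 FPKM over the 6 libraries and microglia genes to 85.4 to 101 FPKM, while 7 skeletal muscle genes summed to at most 7.08 FPKM. Of 3 forebrain genes 2 were listed, with Neurod6 the most abundant, and they summed to 4.32 to 10.7 FPKM. The 7 genes of dorsal root ganglion neurons summed to 9.81 to 17.8 FPKM.

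Control replicate 2 stood apart. Its 28 hepatocyte genes summed to 34153 FPKM, 8.26% of its total, against 80.1 to 145 FPKM in the other 5 libraries. Alb, the most abundant of them, was at 15894 FPKM there. Genes of liver endothelium and Kupffer cells (73.1 against 0.340 to 0.609 FPKM summed over 8 genes), of erythroid cells (18848 against 1115 to 1863 over 9 listed genes) and of neutrophils (424 against 6.04 to 12.7 over 8 genes) were high in the same library. Its neuron genes summed to 512 FPKM, against 925 to 1020 FPKM elsewhere. This library also held Xist, the RNA of the inactive X, at 101 FPKM together with the Y-linked gene Eif2s3y at 10.1 FPKM. SMA replicate 3 had Xist at 146 FPKM and Eif2s3y at 0.0325 FPKM, and the other 4 libraries had Xist at 0.0857 to 0.241 FPKM and Eif2s3y at 31.0 to 34.2 FPKM. By these genes the libraries differed in the sex of their source, so that the SMA libraries were not all of 1 animal, and control replicate 2 carried transcripts of both sexes. Counts of members called are given with all 6 libraries and without control replicate 2. A log2 fold change given once is of the fit with all 6 libraries unless the other is named.

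The share of the members in a library followed that split. Summed over the 31 members, the level was 583, 481 and 642 FPKM in the controls and 614, 606 and 592 FPKM in the SMA libraries. Control replicate 2 was the lowest of the 6 libraries for 22 of 31 members (71.0%), against 44.9% of the 17088 genes tested, and the highest for 3 members, Sema4a, Sema4g and Plxnd1. Control replicate 3 was the highest for 17 of 31 members, against 17.5% of the genes tested, and the members made up 0.185% of its total, against 0.161% to 0.168% in control replicate 1 and the SMA libraries. The fit without control replicate 2 takes its control mean from control replicates 1 and 3. Its value relative to the mean of the other 2 controls ran from 0.478 for Sema3g to 1.43 for Plxnd1. No member in it lay more than 2-fold beyond the range of the other 5 libraries.

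**Figure D1:**
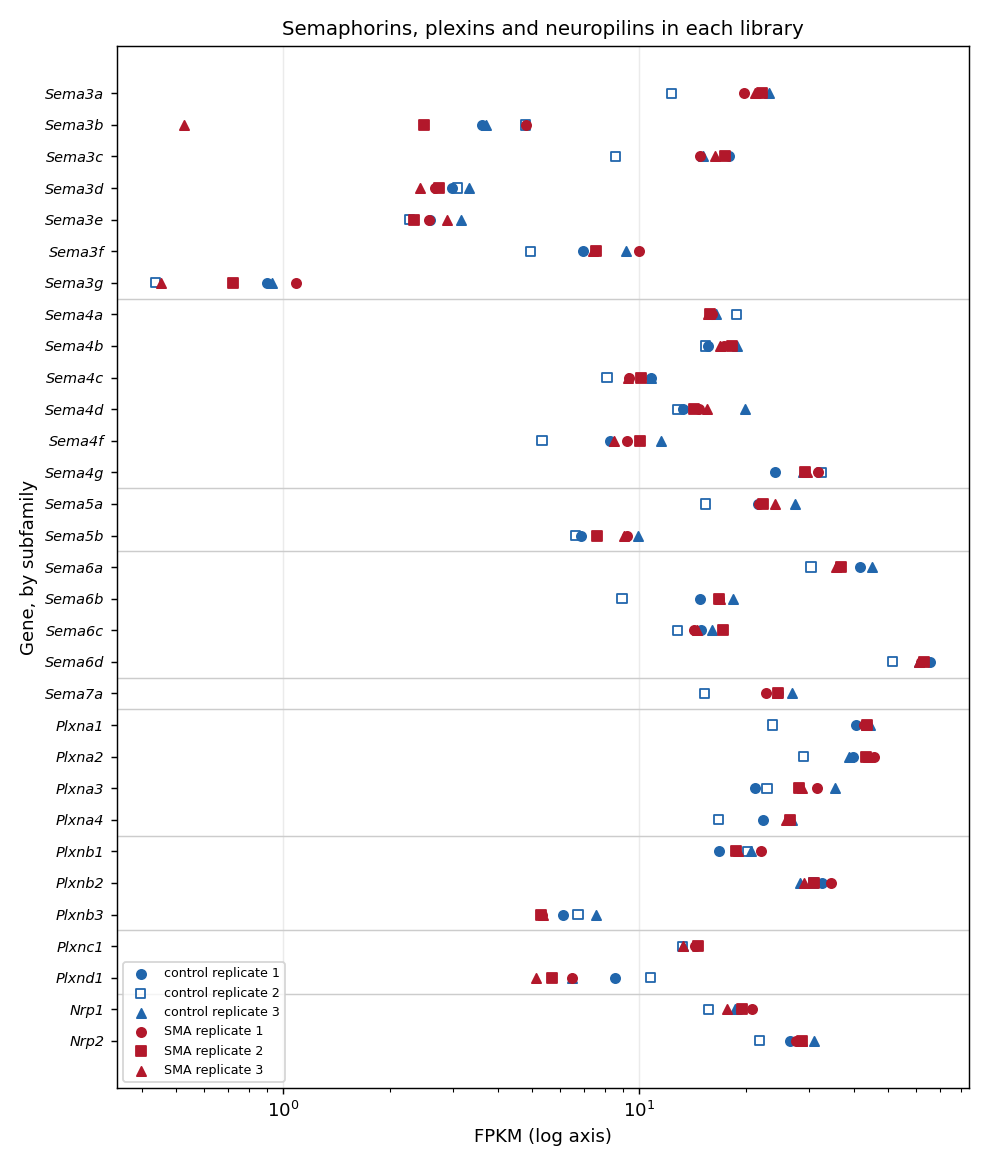
FPKM (log axis) of each of the 31 genes in the 6 libraries, ordered by subfamily, with controls in blue, SMA in red and control replicate 2 as open squares. For most genes the open square lies to the left of the other 5 points, while for Plxnd1 it lies to the right, at 10.7 FPKM.

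**Figure D2:**
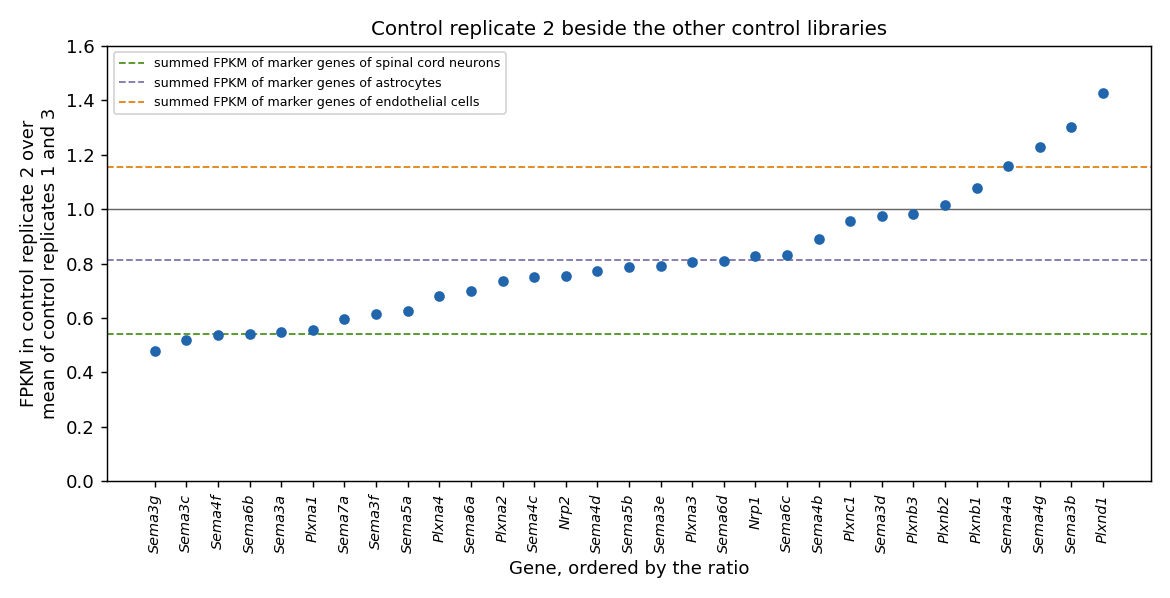
FPKM in control replicate 2 divided by the mean of control replicates 1 and 3, 1 point per gene, with dashed lines for the summed FPKM of neuron, astrocyte and endothelial marker genes. Sema3c (0.520), Sema4f (0.538), Sema6b (0.540), Sema3a (0.547) and Plxna1 (0.555) lie near the line for neuron genes (0.542), and Plxnd1 (1.43) lies above that for endothelial genes (1.16).

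Over the 5 libraries without control replicate 2, mean levels spanned from 0.818 ± 0.242 FPKM for Sema3g to 62.6 ± 1.79 FPKM for Sema6d (SD, n = 5), and 22 of 31 members had a mean of at least 10 FPKM. Sema6d stood alone at the top: its lowest value of the 5, 61.3 FPKM, lay above the highest of Plxna1, 44.5 FPKM. Plxna1 (43.0 ± 1.42 FPKM), Plxna2 (42.4 ± 2.82 FPKM) and Sema6a (39.1 ± 4.14 FPKM) came next, and their ranges overlapped. Of the 30 steps from each member to the next lower, 25 were between members whose ranges overlapped, so the order in the middle of the list was not resolved. The gaps with no overlap lay below Sema6d, Sema6a, Plxnc1, Plxnb3 and Sema3e. The lowest members were Sema3b, Sema3d, Sema3e and Sema3g, all secreted ligands.

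In the comparison of SMA with control, no member passed an adjusted p of 0.05. With all 6 libraries, 2 members were lower in SMA at an unadjusted p under 0.05 in limma, Plxnb3 and Plxnd1, and 0 were higher. By that rule 2.39% of the 17088 tested genes were lower and 3.40% higher, and 0% passed the adjusted p in either direction. Without control replicate 2, 2 members were lower, Sema6a and Plxnb3, and 1 was higher, Plxna2, where 5.20% of 16574 genes tested were lower and 5.27% higher. In that fit 0 of 31 members and 0.0121% of genes passed the adjusted p. The lowest adjusted p of a member was 0.683 with all 6 libraries and 0.307 without control replicate 2 (limma). At the rates of all genes, 0.742 lower and 1.05 higher members of 31 would be counted with all 6 libraries, and 1.61 and 1.63 without control replicate 2, so the members' counts lay within 2 genes of the background.

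Groups without overlap were counted as well. With all 6 libraries, 4 of 31 members had all SMA values on 1 side of all control values, Sema3d, Plxnb3 and Plxnd1 lower and Plxna2 higher, against 17.0% of genes tested (6.67% lower and 10.3% higher). Over the 5 libraries without control replicate 2, this held for 7 of 31 members, against 28.1% (13.9% lower and 14.2% higher). The 5 lower ones were Sema3d, Sema4c, Sema6a, Plxnb3 and Plxnd1, and the 2 higher ones were Sema4g and Plxna2. With control replicate 3 left out instead, 15 of 31 members did not overlap, against 34.2% of genes tested. The controls of that fit were replicates 1 and 2, and control replicate 2 was the lowest of the 6 libraries for 22 of 31 members. In that fit 25 of 31 members had a log2 fold change above 0, against 59.4% of genes tested. The median log2 fold change of the members was 0.07 with all 6 libraries, where that of all genes tested was 0.04. It was -0.03 without control replicate 2, where that of all genes was 0.0016. With all 6 libraries 21 of 31 members had a log2 fold change above 0, against 58.0% of genes tested, and without control replicate 2 this held for 13 of 31, against 50.4%.

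**Figure D3:**
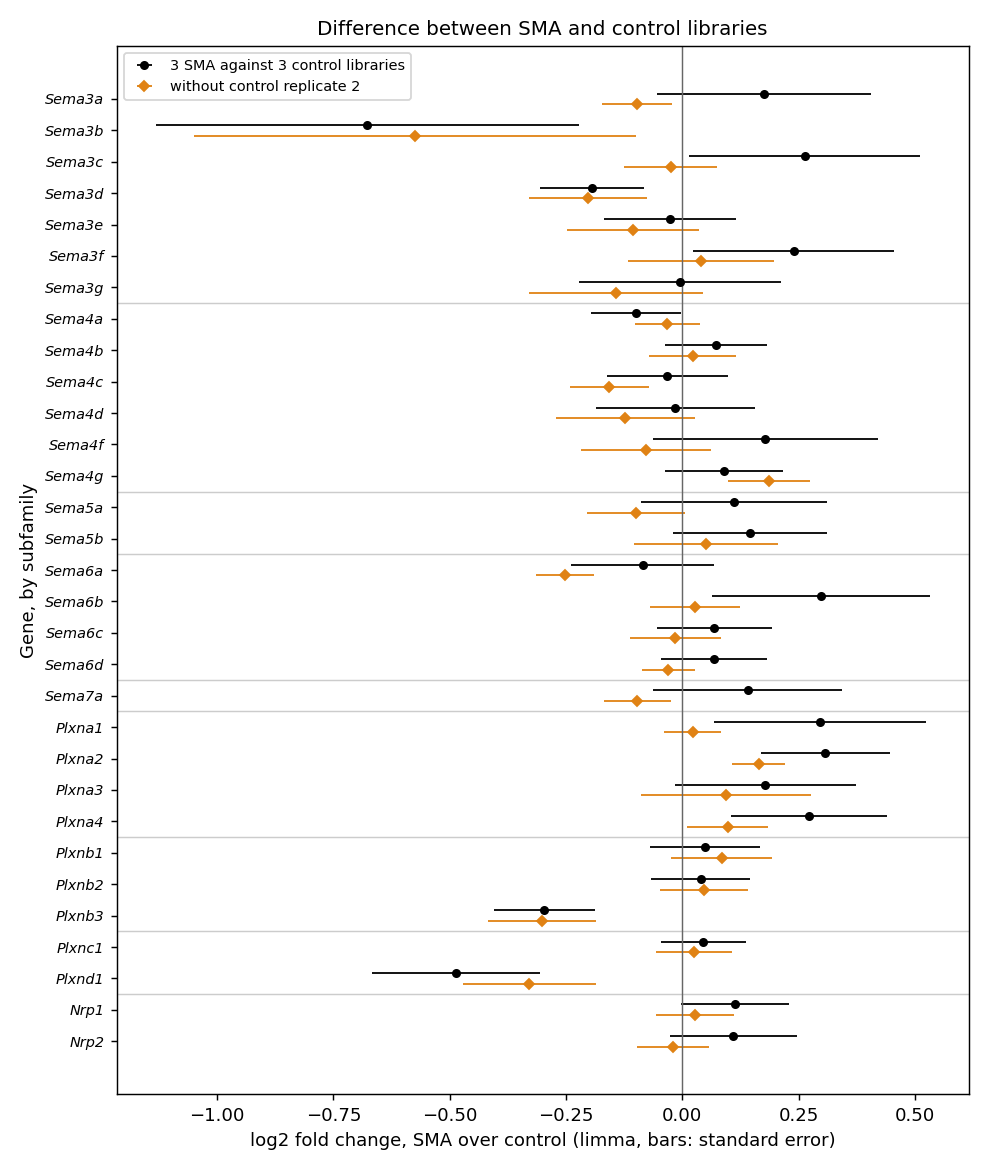
Log2 fold change of SMA over control from limma with its standard error, for each of the 31 genes, with all 6 libraries (black circles) and without control replicate 2 (orange diamonds). Plxnb3 lies at -0.30 in both fits, while Plxna1 moves from 0.30 to 0.02.

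Class 3 semaphorins are the secreted ligands. Sema3a, which repels sensory and motor axons through Nrp1, was their most abundant member, at 21.8, 12.3 and 23.2 FPKM in the controls and 19.6, 22.1 and 21.1 FPKM in the SMA libraries. Only control replicate 2 was low, and the groups overlapped. Its log2 fold change was 0.18 (95% interval -0.37 to 0.73) with all 6 libraries and -0.10 (-0.27 to 0.08) without control replicate 2. None of the 7 class 3 members passed an unadjusted p of 0.05 in either fit. Of all genes tested, 2.39% were lower and 3.40% higher with all 6 libraries, and 5.20% and 5.27% without control replicate 2. Sema3c averaged 16.3 and Sema3f 8.21 FPKM over the 5 libraries, and Sema3d, Sema3e and Sema3g averaged 2.83, 2.70 and 0.818 FPKM.

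Among the members, Sema3b varied most between libraries. It was chosen after its values were seen. Sema3b was listed at 3.63, 4.78 and 3.72 FPKM in the controls and at 4.81, 2.49 and 0.525 FPKM in the SMA libraries. SMA replicate 1 was at the level of the controls and SMA replicate 3 was far below every other library, so the spread within SMA exceeded the difference between the groups. Its log2 fold change was -0.68 (standard error 0.455, limma adjusted p = 0.683), and -0.57 without control replicate 2. With SMA replicate 1 left out it was -1.12, at an unadjusted p under 0.05, with SMA replicate 3 left out it was -0.16, and a pseudocount of 0.1 gave -1.04. Over the 5 libraries its highest value was 9.16 times its lowest, and the next such ratios were 2.40 for Sema3g, 1.68 for Plxna3 and 1.67 for Plxnd1.

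Summed genes of fibroblasts, and Prx and Egr2 of Schwann cells, were low in the same SMA libraries as Sema3b. The 7 fibroblast genes, of which Col1a2 was the most abundant, summed to 163, 170 and 147 FPKM in the controls and 179, 76.4 and 35.5 FPKM in SMA. None of the 7 was at 0 in any library. With all 6 libraries 1 of 7, Pdgfrl, had a log2 fold change above 0, against 58.0% of genes tested. Without control replicate 2 only Mfap5 was above 0, against 50.4%. In limma, 1 of 7 was lower at an unadjusted p under 0.05 with all 6 libraries, against 2.39% of genes tested. Without control replicate 2 this held for 0 of 7, against 5.20%. Prx, a protein of Schwann cells that wrap axons, was at 6.57, 7.47 and 13.1 FPKM in the controls and 11.5, 4.47 and 0.695 FPKM in SMA. Egr2, their myelination factor, was at 0.915 FPKM or more in the controls and at 1.47, 0.748 and 0.151 FPKM in SMA. Cdh19 also was lowest in SMA replicate 3 (0.441 FPKM), while Ncmap was lowest in SMA replicate 2 (0.962 FPKM) and Sox10, shared with oligodendrocytes, was at 11.6 to 14.1 FPKM in the 6 libraries. Sema3g held the same order within SMA, at 1.09, 0.721 and 0.454 FPKM, but was lowest in control replicate 2 (0.438 FPKM), where the fibroblast genes were the highest of the controls. The part of these cells, which lie in nerve roots and meninges, in the values of Sema3b and Sema3g was not tested, and in bulk tissue fewer cells of a type and less RNA per cell cannot be told apart.

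Class 4 semaphorins are membrane ligands, several of which bind B-type plexins. Sema4g was their most abundant member, at 24.1, 32.6 and 28.9 FPKM in the controls and 31.8, 29.1 and 29.7 FPKM in the SMA libraries. Control replicate 1 was the lowest library and control replicate 2 the highest, so the groups overlapped with all 6 libraries and did not without control replicate 2. Sema4g had log2 fold changes of 0.09 and 0.19 in these fits (limma adjusted p = 0.787 and 0.517), and of -0.024 without control replicate 1. Sema4d, the ligand of Plxnb1, averaged 15.5 ± 2.56 FPKM over the 5 libraries, with control replicate 3 the highest at 19.9 FPKM. The other 4 averaged 17.4 (Sema4b), 16.0 (Sema4a), 10.1 (Sema4c) and 9.52 FPKM (Sema4f). In either fit 0 of 6 class 4 members passed an unadjusted p of 0.05. Of all genes tested, 2.39% were lower and 3.40% higher with all 6 libraries, and 5.20% and 5.27% without control replicate 2. Without control replicate 2, Sema4c lay wholly below the controls and Sema4g wholly above, against 13.9% and 14.2% of genes tested.

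The class 5 and class 7 ligands were at middle levels. Sema5a, which acts on axons through Plxna1 and Plxna3, was at 21.6, 15.3 and 27.4 FPKM in the controls and 21.6, 22.2 and 24.1 FPKM in the SMA libraries. The SMA values lay between the extremes of the controls. Its log2 fold change was 0.11 (95% interval -0.37 to 0.59), and -0.10 (-0.35 to 0.15) without control replicate 2. Sema5b averaged 8.53 FPKM over the 5 libraries. Sema7a, the ligand of Plxnc1 that is anchored by a lipid, was at 24.5, 15.3 and 26.8 FPKM in the controls and 22.8, 24.6 and 24.4 FPKM in SMA, again with only control replicate 2 low and the groups overlapping (log2 fold change 0.14, and -0.10 without control replicate 2).

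Class 6 semaphorins are membrane ligands of A-type plexins and held the highest ligand levels. Sema6d was at 65.5, 51.4 and 61.3 FPKM in the controls and 61.8, 63.0 and 61.3 FPKM in the SMA libraries. Apart from control replicate 2 the libraries lay within 1.07-fold of each other. The log2 fold change was 0.07 (95% interval -0.20 to 0.34), and -0.03 (-0.16 to 0.10) without control replicate 2, so a difference beyond these bounds was not seen in the whole cord at this number of libraries.

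Sema6a, which marks boundary cap cells and is also made by oligodendrocytes, was at 41.7, 30.4 and 45.2 FPKM in the controls and at 36.4, 36.8 and 35.7 FPKM in the SMA libraries. The SMA values lay close together, below control replicates 1 and 3 and above control replicate 2. With all 6 libraries the log2 fold change was -0.09 (standard error 0.154, limma adjusted p = 0.831). With control replicate 2 left out, it was -0.25 (standard error 0.0616, limma adjusted p = 0.307), lower in 3 of 3 SMA libraries, and the exact two-sided permutation p was 0.1, the smallest that 3 against 2 libraries allow. Sema6b and Sema6c averaged 16.7 and 15.4 FPKM over the 5 libraries, and neither passed an unadjusted p of 0.05.

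Plxna1, a receptor for class 3, class 5 and class 6 ligands, was at 40.7, 23.7 and 44.5 FPKM in the controls and 42.8, 43.6 and 43.5 FPKM in the SMA libraries. The SMA values lay between control replicates 1 and 3. The log2 fold change of 0.30 (95% interval -0.25 to 0.84) with all 6 libraries rested on control replicate 2, and was 0.02 (-0.12 to 0.17) without it. Sema6d, Sema5a and Plxna1 were thus at overlapping levels in SMA and control cord. Bulk values do not show in which cells a ligand or receptor is made, so they do not test the pairs that the paper reported from single cells.

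Plxna2, a receptor for class 3 and class 6 semaphorins, was at 40.0, 29.0 and 38.9 FPKM in the controls and at 45.6, 43.5 and 43.8 FPKM in the SMA libraries. All SMA values lay above all control values. The log2 fold change was 0.31 (standard error 0.138, limma adjusted p = 0.683) with all 6 libraries and 0.16 (standard error 0.0569, limma adjusted p = 0.414) without control replicate 2. The exact two-sided permutation p was 0.1 for 3 against 3 libraries, the smallest they allow. Plxna3 ranged from 21.2 FPKM in control replicate 1 to 35.5 FPKM in control replicate 3, and Plxna4 from 16.7 to 26.9 FPKM. The 4 A-type plexins summed to 124, 92.2 and 146 FPKM in the controls and 146, 142 and 142 FPKM in SMA. All 4 had a log2 fold change above 0 in both fits and under each alternative tried. Without control replicate 3, Plxna3, Plxna4 and Sema5b were higher at an unadjusted p under 0.05, where 6.07% of genes tested were, and Plxna2 was not. The controls of that fit were replicates 1 and 2.

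Neuron genes were set beside Plxna2. The 11 neuron genes, of which Tubb3 was the most abundant, summed to 964, 512 and 925 FPKM in the controls and 952, 1007 and 1020 FPKM in SMA. With all 6 libraries 11 of 11 had a log2 fold change above 0 (median 0.33), 6 lay wholly above the controls, against 10.3% of genes tested, and 0 were higher or lower at an unadjusted p under 0.05. Without control replicate 2, 8 of 11 were above 0 (median 0.12), 6 lay wholly above the controls and 2 wholly below, against 14.2% and 13.9%. In that fit, where 5.27% of genes tested were higher and 5.20% lower at an unadjusted p under 0.05, 3 of them were higher (Syt1, Rbfox3 and Slc32a1, log2 fold changes 0.15, 0.21 and 0.18) and 1 was lower (Slc6a5, -0.20) by that rule. Their part in the values of Plxna2 was not tested.

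B-type plexins include receptors of class 4 semaphorins. Plxnb2, which acts in neural progenitors, was at 32.7, 30.9 and 28.3 FPKM in the controls and 34.6, 31.1 and 28.9 FPKM in the SMA libraries, with overlapping groups and log2 fold changes of 0.04 and, without control replicate 2, 0.05. Plxnb1 averaged 19.4 ± 1.96 FPKM over the 5 libraries. Plxnb3, a receptor made mainly by the oligodendrocyte lineage in the central nervous system, was at 6.11, 6.73 and 7.57 FPKM in the controls and at 5.34, 5.28 and 5.38 FPKM in the SMA libraries. All SMA values lay below all control values, and they differed less among themselves than the controls did. The mean was 6.80 ± 0.733 FPKM in control and 5.33 ± 0.0516 FPKM in SMA (SD, n = 3 each). The log2 fold change was -0.30 with all 6 libraries (standard error 0.108, limma adjusted p = 0.683) and -0.30 without control replicate 2 (standard error 0.117, limma adjusted p = 0.443). The exact two-sided permutation p was 0.1 with 6 libraries, the smallest possible. Plxnb3 was the 1 member at an unadjusted p under 0.05 both with and without control replicate 2, and it was not when control replicate 3 or any 1 of the SMA libraries was left out, with quantile normalization, with the replicate block, or without control replicate 2 and SMA replicate 3 together.

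Myelin genes were set beside Plxnb3 and Sema6a. The 7 genes of myelinating oligodendrocytes, of which Mbp was the most abundant and Opalin was at 0.0304 to 0.163 FPKM, summed to 861, 843 and 1284 FPKM in the controls and 679, 847 and 880 FPKM in SMA. Control replicate 3 was the highest and SMA replicate 1 the lowest. All 6 that were tested had a log2 fold change below 0 in both fits and under both scalings, quantile and median ratio. With all 6 libraries, though, 0 of 6 were lower at an unadjusted p under 0.05, against 2.39% of genes tested. Without control replicate 2, where 5.20% of genes tested were lower, this held for 2 of 6 (Mag at -0.46 and Cnp at -0.27). Of 6 genes of oligodendrocyte precursors, 0 were lower with all 6 libraries, where 4 had a log2 fold change above 0 (2 with median ratio scaling). Of these 6, without control replicate 2, 1 was above 0, against 50.4% of genes tested, and 2 lay wholly below the controls, against 13.9%. At an unadjusted p under 0.05, 1 (Pdgfra, -0.17) was lower, against 5.20%. Within SMA the order differed: the myelin genes were lowest in replicate 1, while Plxnb3 varied from 5.28 to 5.38 FPKM. The part of these cells in the values of Plxnb3 and Sema6a was not tested. Plxnb3 and Plxna3 lie on the X chromosome, 556.6 kb apart, and SMA replicate 3, the library with Xist and almost no Eif2s3y, had Plxnb3 at 5.38 and Plxna3 at 28.6 FPKM, close to the other SMA libraries.

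Plxnc1, the receptor of Sema7a, was steady at 14.4, 13.2 and 13.3 FPKM in the controls and 14.4, 14.7 and 13.3 FPKM in the SMA libraries. Plxnd1, the receptor of Sema3e in vessels and some neurons, was at 8.57, 10.7 and 6.48 FPKM in the controls and at 6.45, 5.69 and 5.13 FPKM in the SMA libraries. The groups did not overlap, though control replicate 3 and SMA replicate 1 nearly met, and control replicate 2 was the highest. The mean was 8.59 ± 2.12 FPKM in control and 5.76 ± 0.666 FPKM in SMA (SD, n = 3 each). By limma, Plxnd1 had -0.49 on the log2 scale (SE 0.181, adjusted p = 0.683), with an exact two-sided permutation p of 0.1. With control replicate 2 left out, it was -0.33 (standard error 0.143, limma adjusted p = 0.484, permutation p = 0.2), and Plxnd1 was no longer at an unadjusted p under 0.05, which also held without control replicate 1, SMA replicate 2 or SMA replicate 3. It was under 0.05 with arrayWeights, and without control replicate 2 when median ratio scaling was added, again at -0.33.

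Endothelial genes lay lower beside Plxnd1. All 9 on the list had a log2 fold change below 0 in both fits, and with quantile normalization or median ratio scaling, with a median of -0.54 with all 6 libraries and -0.49 without control replicate 2. At an unadjusted p under 0.05, 5 of 9 were lower with all 6 libraries (Pecam1, Cldn5, Kdr, Tek and Tie1), against 2.39% of genes tested, and 6 of 9 without control replicate 2, against 5.20%. In both fits 0 of 9 passed the adjusted p. Summed over the 9 genes, of which Cldn5 was the most abundant and none was at 0, the level was 83.6, 105 and 98.7 FPKM in the controls and 76.3, 58.9 and 57.6 FPKM in SMA. Cldn5 was at 25.8, 20.4 and 25.0 FPKM in the controls and at 16.4, 15.7 and 14.4 FPKM in SMA, a log2 fold change of -0.58 (standard error 0.119, limma adjusted p = 0.683), and -0.68 without control replicate 2 (limma adjusted p = 0.108). The 5 pericyte genes, with Rgs5 the most abundant, summed to 42.3, 43.1 and 51.1 FPKM in the controls and 41.3, 35.4 and 37.3 FPKM in SMA. In both fits 4 of 5 had a log2 fold change below 0 and 2 (Rgs5 and Abcc9) were lower at an unadjusted p under 0.05. Genes of liver endothelium were in control replicate 2 as well (Stab2 at 19.1 FPKM, against 0.0706 to 0.224 FPKM elsewhere). The part of either in the values of Plxnd1 was not tested.

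**Figure D4:**
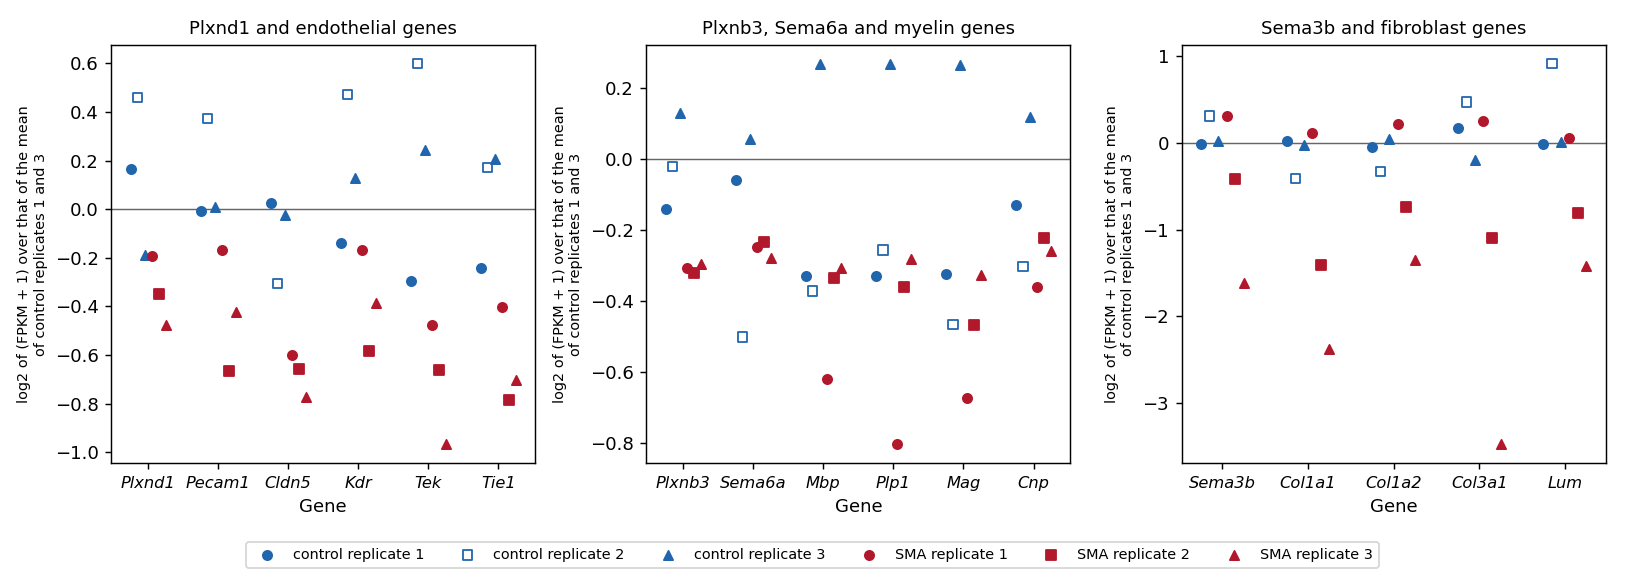
Log2 of (FPKM + 1) in each library relative to the mean of control replicates 1 and 3, for Plxnd1 beside endothelial genes, Plxnb3 and Sema6a beside myelin genes, and Sema3b beside fibroblast genes. Only part of each marker list is drawn. The endothelial genes drawn are the 5 of 9 that were lower at an unadjusted p under 0.05 with all 6 libraries. Mog, Mobp and Opalin of the myelin list, and Dcn, Mfap5 and Pdgfrl of the fibroblast list, are not drawn. Pdgfrl had a log2 fold change above 0 with all 6 libraries, and Mfap5 without control replicate 2. Controls are blue, SMA red and control replicate 2 an open square. All SMA points of Plxnd1, Cldn5, Tek and Tie1 lie below the control points, and the points of Sema3b fall apart within SMA.

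Neuropilins bind class 3 semaphorins and also VEGF. Nrp2 was at 26.6, 21.7 and 31.0 FPKM in the controls and 27.6, 28.6 and 28.7 FPKM in the SMA libraries, with SMA between the extremes of the controls and log2 fold changes of 0.11 and -0.02 in the 2 fits. Nrp1 averaged 19.1 ± 1.16 FPKM over the 5 libraries and had log2 fold changes of 0.11 (95% interval -0.17 to 0.39) and 0.03 (-0.17 to 0.22). Together they summed to 45.8, 37.3 and 49.6 FPKM in the controls and 48.4, 48.1 and 46.3 FPKM in SMA.

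Partners of the pathway were counted from lists of 53 genes. Of 15 co-receptors, 14 were tested and 4 were lower with all 6 libraries at an unadjusted p under 0.05, with 0 higher, where 2.39% of all genes were lower. These were Kdr, a VEGF receptor that associates with Plxnd1 and neuropilins (-0.53 on the log2 scale) and is counted among the endothelial genes above as well, Met, a partner of B-type plexins (-1.38), and the integrins Itga1 (-0.80) and Itgb1 (-0.43), whose dimer binds Sema7a. Met was at 2.04, 15.3 and 8.72 FPKM in the controls and 1.90, 1.97 and 2.17 FPKM in SMA, so 2 control libraries set its difference. Without control replicate 2 it had -0.85 and was not at an unadjusted p under 0.05. Itgb1 was at 51.8, 64.3 and 47.4 FPKM in the controls and 43.7, 40.3 and 36.2 FPKM in SMA, with no overlap. Without control replicate 2, where 5.20% of all genes were lower, 5 of 14 were: Kdr (-0.37), Itga1 (-0.54), Itgb1 (-0.30), the adaptor Gipc1 (-0.30) and Chl1 (-0.13), the most abundant of the list. The part of endothelial cells in these counts was not tested. Of the 5 VEGF ligands, 4 were tested and 0 passed in either direction, with Vegfb the most abundant at a mean of 21.8 FPKM over the 6 libraries.

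Cytoplasmic effectors were the most abundant of these lists. Dpysl3, of the collapsin response mediator family that acts downstream of semaphorins, averaged 309.6 FPKM over the 6 libraries. Of 33 effectors, 1 was higher with all 6 libraries and 0 were lower, against 3.40% and 2.39% of genes tested. The higher one, Rasa1, a GTPase activator for Ras, was at 21.7, 20.3 and 20.5 FPKM in the controls and 25.2, 24.3 and 24.1 FPKM in SMA (log2 fold change 0.23). In the fit without control replicate 2, 5 were higher and 1 lower, against 5.27% and 5.20% of genes tested. The higher ones were the collapsin response mediators Crmp1 (0.14), Dpysl3 (0.13) and Dpysl5 (0.19), the kinase Cdk5 that phosphorylates them (0.15), and Rasa1 (0.21), and Pak1, a kinase downstream of Rac, was at -0.21. Of the 11 neuron genes, 3 were higher and 1 lower in the same fit, and the part of neurons in these effectors was not tested. None of the 51 partners tested passed an adjusted p of 0.05 in either fit.

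Other guidance families were set beside the members. Of 49 genes on lists of netrins, Slits and ephrins with their receptors, 48 were listed and 46 tested. The lists also hold Srgap1, Srgap2, Srgap3, Rgma, Rgmb and Draxin. At an unadjusted p under 0.05, 1 was lower (Ephb4, -0.68, and -0.43 without control replicate 2) and 1 higher (Epha7, 0.33), against 2.39% and 3.40% of genes tested. Without control replicate 2, 45 were tested, with 0 lower and 1 higher, again Epha7 (0.20), against 5.20% and 5.27%. Their median log2 fold change was 0.17 with all 6 libraries and 0.05 without control replicate 2, against 0.07 and -0.03 for the members. Their summed level was 804, 579 and 793 FPKM in the controls and 832, 832 and 825 FPKM in SMA. The most abundant of each list over the 6 libraries were Neo1 (38.1 FPKM), Srgap3 (76.0 FPKM) and Efnb3 (41.0 FPKM).

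The members lie on 17 chromosomes. On chromosome 5, Sema3d, Sema3a, Sema3e and Sema3c lie within 5.35 Mb, and on chromosome 9 Sema3b and Sema3f are 72.3 kb apart, yet Sema3b (3.03 FPKM) and Sema3f (8.21 FPKM) differed in level, and Sema3f was at 9.96, 7.56 and 7.42 FPKM in the SMA libraries where Sema3b was at 4.81, 2.49 and 0.525 FPKM. By Ensembl ID, 31 of 31 were in GENCODE M21 of GRCm38, and 21 had the same span there as in the files, whose build is given as mm10. For 10 members the span in the files also holds other genes, at up to 4.48 FPKM beside Plxna2, and it is not stated whether counting used the strand, so reads of these genes and of the member could be mixed. Plxnb3 (chromosome X from 73757090 to 73772514), Plxnd1 (chromosome 6 from 115954811 to 115995005) and Sema6a had their spans to themselves, while that of Plxna2 (chromosome 1 from 194618218 to 194816869) holds 4 other genes.

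RefSeq promoter windows, credited to the build GRCm38.p6, were matched by symbol for 26 of 31 members (37 starts). The windows searched are the 250 bases before each RefSeq start. These starts can differ from those of the spans above: the window of Plxna2 lies within its span, and that of Plxnb3 runs past the start of its span. Those of Plxnd1, Plxnb3 and Plxna2 are shown since these receptors had an unadjusted p under 0.05 in 1 or both fits. They are written 5′ to 3′ on the strand of the gene, with matches to the searched motifs in capitals:
Plxnd1, chr6:115995006-115995255, minus strand: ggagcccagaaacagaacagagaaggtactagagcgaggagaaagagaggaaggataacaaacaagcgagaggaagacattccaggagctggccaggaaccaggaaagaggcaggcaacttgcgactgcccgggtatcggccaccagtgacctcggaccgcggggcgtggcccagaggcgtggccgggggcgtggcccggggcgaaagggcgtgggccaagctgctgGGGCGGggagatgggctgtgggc
Plxnb3, chrX:73756853-73757102, plus strand: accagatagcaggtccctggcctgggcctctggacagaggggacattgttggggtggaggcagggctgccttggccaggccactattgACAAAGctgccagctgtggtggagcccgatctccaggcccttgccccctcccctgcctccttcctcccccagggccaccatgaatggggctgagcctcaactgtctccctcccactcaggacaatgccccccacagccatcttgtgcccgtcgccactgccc
Plxna2, chr1:194619579-194619828, plus strand: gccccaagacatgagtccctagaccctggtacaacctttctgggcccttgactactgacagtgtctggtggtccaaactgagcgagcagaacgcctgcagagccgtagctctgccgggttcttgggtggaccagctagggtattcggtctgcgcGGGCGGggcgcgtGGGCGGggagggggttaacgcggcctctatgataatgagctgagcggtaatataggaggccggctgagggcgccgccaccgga

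Matches were sought on both strands to the TATA box TATAAA, the CCAAT box CCAAT, the GC box GGGCGG, the E-box CACGTG and the Sox motif ACAAAG. The GC box was in 27 of 37 windows of the members (73.0%) and in 32.7% of all 32851 windows, and TATAAA was in 0 of 37 and 12.4%. CCAAT was in 18.9% of the members' windows and 33.8% of all, CACGTG in 5.41% and 6.02%, and ACAAAG in 13.5% and 16.5%. The windows of Plxnd1 and Plxna2 held 1 and 2 GC boxes and 16 and 18 CpG dinucleotides. That of Plxnb3 held 3 CpG, no GC box and 1 ACAAAG, on the strand shown. The median G and C content was 64.0% in the members' windows and 52.4% in all, a composition that the letters of the GC box share. A match is a description of letters and says nothing of binding.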

How the data were processed

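Per the labels, the authors aligned reads of ribosome-depleted, strand-specific libraries to mm10 with HISAT2 and computed FPKM per gene with Cufflinks, 1 deposited file per library. Versions were not stated. No counts were given, so the depth in reads is unknown. Ratios between libraries of FPKM values below 0.15, at their mode, put relative depth between 1.00 and 1.16 of SMA replicate 1. A gene absent from a file was set to 0. From these values log2(FPKM + 1) was computed, and every gene averaging 0.5 FPKM or more over the libraries fitted was tested with limma 3.58.1 in R 4.3.3 (eBayes with trend, two-sided, Benjamini-Hochberg adjustment over all genes tested), with all 6 libraries and without control replicate 2. Single members were also tested by an exact two-sided permutation test. Values in every library are given for the most abundant member of each subfamily, for Sema6d, Sema5a and Plxna1, and for members at an unadjusted p under 0.05 in either fit. Partner genes are named where they passed that rule or were the most abundant of their list. The members and lists were chosen with earlier results of these data known.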

Additional observations from a re-analysis of the deposited data

How the results depend on the processing

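In every alternative 0 members passed an adjusted p of 0.05, and the log2 fold changes of Plxnb3, Plxnd1 and the A-type plexins kept their sign. Replicate numbers did not pair the libraries (correlations of deviations -0.037, 0.016 and 0.077). With the replicate block, 1 member, Plxnd1, was lower and 0 were higher at an unadjusted p under 0.05, against 1.77% and 2.08% of genes tested. Lower members numbered 1 (Plxnd1) with quantile normalization, against 1.97% of genes tested. They numbered 1 (Sema6a), against 3.22%, without control replicate 2 and SMA replicate 3 together, a setting chosen after seeing the data. They numbered 3 (Sema6a, Plxnb3 and Plxnd1) with arrayWeights (3.62% of genes), and without control replicate 2 with median ratio scaling (5.42%). Higher members numbered 1 (Plxna2) with quantile normalization (3.74% of genes), median ratio scaling (3.09%) and arrayWeights (4.16%). They also numbered 1 (Plxna2) without control replicate 2 with median ratio scaling (5.06%). In that setting 7 members did not overlap, against 28.0% of genes, and 13 lay above 0, against 49.7%. Without control replicate 2 and SMA replicate 3 together, 9 did not overlap, against 36.3%. Leaving out 1 library in turn gave 0 to 2 lower members (0.731% to 5.20% of genes), 0 to 3 higher (1.25% to 6.07%), 4 to 15 without overlap (22.3% to 34.2%) and 13 to 25 above 0 (50.4% to 59.6%). The 15 were without control replicate 3, where 34.2% of genes did not overlap and the controls were replicates 1 and 2. Plxnb3 stayed at an unadjusted p under 0.05 without control replicates 1 or 2, and Plxnd1 without control replicate 3 or SMA replicate 1, while neither did without SMA replicates 2 or 3. Some log2 fold changes turned sign. Leaving out 1 library, they ran from -0.020 to 0.23 for Nrp2, -0.041 to 0.10 for Plxnb1, -0.028 to 0.10 for Plxnb2, -0.10 to 0.33 for Sema3a, -0.025 to 0.46 for Sema3c, -0.11 to 0.067 for Sema3e, -0.14 to 0.12 for Sema3g, -0.16 to 0.029 for Sema4c, -0.12 to 0.18 for Sema4d, -0.078 to 0.41 for Sema4f, -0.024 to 0.19 for Sema4g, -0.10 to 0.30 for Sema5a, -0.25 to 0.027 for Sema6a, -0.015 to 0.13 for Sema6c, -0.030 to 0.14 for Sema6d and -0.10 to 0.29 for Sema7a. With arrayWeights they were -0.044 (Sema3a), -0.031 (Sema4f), -0.061 (Sema5a), -0.014 (Sema6d) and -0.052 (Sema7a). Median ratio scaling gave -0.0085 (Plxnb1), -0.018 (Plxnb2) and -0.011 (Plxnc1), and quantile normalization -0.00083 (Plxnb2), 0.068 (Sema3e) and 0.067 (Sema3g). Median ratio scaling without control replicate 2 gave -0.023 (Nrp2), -0.10 (Sema3a), -0.028 (Sema3c), -0.081 (Sema4f), -0.10 (Sema5a), -0.018 (Sema6c), -0.033 (Sema6d) and -0.10 (Sema7a). The cause was not tested. Depth in reads is unknown, and 3 libraries a group limit what could be seen.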
